A study of Mus musculus with 18 samples.

Results

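In the mouse lung epithelium, 980 short stretches of the genome were listed as open only after G9a inhibition in cells with low surface CD24 (CD24low) and only after vehicle in cells with high surface CD24 (CD24high). They were chosen from lists of ATAC-seq peaks by a fixed rule. Within each population, peaks were merged into regions, and a region was G9ai-only when every inhibitor list and no vehicle list held a peak there, and vehicle-only in the opposite case. A member is a CD24low G9ai-only region that shares at least 1 bp with a CD24high vehicle-only region. The 980 members were 13.7% of the 7172 CD24low G9ai-only regions out of 38613 merged regions in the 3 populations. The other 6192 CD24low G9ai-only regions served as the set they were compared with.

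The mice were adult c57/bl6 animals of 6 to 12 weeks that received a G9a inhibitor (G9ai) or vehicle, with 3 mice in each arm per the design text. From lung, cells lacking CD31 and CD45 and carrying Epcam and Sca-1 were sorted by CD24 into negative (CD24neg), low and high populations, and each library was made from 10000 cells. Of 18 libraries, 10 were analysed here. The rule used 7 of them, which were CD24low G9ai 2 and 3, CD24high G9ai 2 and 3, CD24low vehicle 2 and 3, and CD24high vehicle 3. The CD24neg G9ai 2 and 3 and CD24neg vehicle 3 libraries were not used by the rule. No source used here states the dose, route or duration of the inhibitor.

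G9a, the product of Ehmt2, methylates histone H3 at lysine 9, a modification associated with repressed genes. ATAC-seq reports open chromatin through the insertion of sequencing adapters by a transposase. In the airways, secretory club cells and multiciliated cells are major epithelial types. CD31 marks endothelial cells and CD45 marks leukocytes, so the gate was built to leave both out. The lists hold regions that set the arms apart and not all open regions, so the sorted cell types could not be checked against the openness of their marker genes.

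The promoter sequences below are shown because they are where a base-level view of the members is possible: each window holds bases listed in both populations but in opposite arms. They run 5′ to 3′ on the strand of the gene, from 250 bases before to 50 bases after a RefSeq transcription start site (GRCm38.p6). Capitals mark the bases that lie in both the CD24low G9ai-only region and the CD24high vehicle-only region. Fuz, needed for the assembly of primary cilia, lay at the member with the highest mean score percentile over its 3 lists (chr7:44895829-44896128, plus strand, 26 bases shared). Samd15 shares its start region with Tmed8 on the other strand (chr12:87200258-87200557, plus strand, 120 bases shared). Hnrnpf encodes an RNA-binding splicing factor (chr6:117917044-117917343, plus strand, 99 bases shared). Ltbp1 encodes a protein that stores latent TGF-beta in the matrix (chr17:75178531-75178830, plus strand, 235 bases shared). Its window, like those of Fuz and Hnrnpf, lies at a start inside the gene and not at a gene end. Cyp2f2 encodes a cytochrome P450 abundant in club cells (chr7:27119705-27120004, plus strand, 158 bases shared). Ifitm3 encodes an interferon-induced membrane protein that restricts viruses (chr7:141010695-141010994, minus strand, 127 bases shared), and it was chosen after its values were seen.
Fuz: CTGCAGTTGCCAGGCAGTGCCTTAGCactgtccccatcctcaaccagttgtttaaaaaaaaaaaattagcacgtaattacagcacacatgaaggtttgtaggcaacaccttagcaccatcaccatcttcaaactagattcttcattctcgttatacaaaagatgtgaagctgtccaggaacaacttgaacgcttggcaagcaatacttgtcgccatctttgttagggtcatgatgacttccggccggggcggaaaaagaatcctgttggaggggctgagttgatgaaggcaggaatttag
Samd15: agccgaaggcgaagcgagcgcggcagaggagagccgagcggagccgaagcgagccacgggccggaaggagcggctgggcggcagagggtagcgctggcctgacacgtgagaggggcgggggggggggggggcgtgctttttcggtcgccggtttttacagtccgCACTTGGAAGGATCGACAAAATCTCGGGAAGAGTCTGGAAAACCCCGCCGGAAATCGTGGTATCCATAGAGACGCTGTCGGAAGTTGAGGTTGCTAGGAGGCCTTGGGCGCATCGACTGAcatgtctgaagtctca
Hnrnpf: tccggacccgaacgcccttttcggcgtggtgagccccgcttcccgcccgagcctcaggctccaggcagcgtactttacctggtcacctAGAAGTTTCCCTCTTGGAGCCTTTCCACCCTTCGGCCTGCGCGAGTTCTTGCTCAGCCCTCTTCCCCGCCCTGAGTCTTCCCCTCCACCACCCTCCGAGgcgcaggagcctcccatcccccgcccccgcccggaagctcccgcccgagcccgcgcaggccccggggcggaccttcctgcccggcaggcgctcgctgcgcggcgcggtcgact
Ltbp1: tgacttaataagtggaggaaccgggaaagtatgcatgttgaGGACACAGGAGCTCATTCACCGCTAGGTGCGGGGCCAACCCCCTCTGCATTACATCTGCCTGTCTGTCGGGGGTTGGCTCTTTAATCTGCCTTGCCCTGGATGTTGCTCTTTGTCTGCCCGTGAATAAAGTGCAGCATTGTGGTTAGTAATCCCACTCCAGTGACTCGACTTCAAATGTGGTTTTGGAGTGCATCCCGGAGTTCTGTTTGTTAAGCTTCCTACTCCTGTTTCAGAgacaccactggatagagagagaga
Cyp2f2: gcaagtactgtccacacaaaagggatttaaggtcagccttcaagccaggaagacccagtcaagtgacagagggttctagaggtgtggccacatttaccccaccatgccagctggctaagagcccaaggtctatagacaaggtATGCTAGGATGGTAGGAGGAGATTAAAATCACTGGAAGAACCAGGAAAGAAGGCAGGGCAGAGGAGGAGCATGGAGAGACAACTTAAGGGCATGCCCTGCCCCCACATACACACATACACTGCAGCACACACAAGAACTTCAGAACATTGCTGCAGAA
Ifitm3: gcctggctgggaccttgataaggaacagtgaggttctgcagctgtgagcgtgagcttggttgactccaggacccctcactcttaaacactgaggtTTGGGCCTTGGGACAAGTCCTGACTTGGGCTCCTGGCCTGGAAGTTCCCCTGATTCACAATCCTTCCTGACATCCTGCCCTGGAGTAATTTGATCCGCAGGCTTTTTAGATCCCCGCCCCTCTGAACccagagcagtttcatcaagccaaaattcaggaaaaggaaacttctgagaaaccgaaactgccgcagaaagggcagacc

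These windows differed widely in base composition. A CpG is a C followed by a G. The Hnrnpf window held 32 CpG and the Samd15 window 30, whereas the Fuz and Ltbp1 windows held 7 each and the Ifitm3 window 5. The Cyp2f2 window held 0 CpG, which was so for 1 of the 68 windows with a member and for 984 (4.63%) of all 21263 windows in the table. Over the 68 windows the median was 18 CpG, against 20 in the 445 windows with another CD24low G9ai-only region and 13 in all windows. The transcription start itself lay inside the CD24low region at Samd15, Ltbp1 and Cyp2f2, and beside it at Fuz, Hnrnpf and Ifitm3.

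The direction that defines the members was the usual one on the CD24high side. There, 82.1% of merged regions were vehicle-only and 17.1% were G9ai-only, whereas in CD24low 71.9% were G9ai-only and 25.1% were vehicle-only. The members were therefore read against those shares, and no test was made of a direction that the rule fixed. The 13.7% of CD24low G9ai-only regions that met a CD24high vehicle-only region (12.9 to 14.5, 95% by Wilson) compared with 16.5% among the 2500 CD24low vehicle-only regions (15.1 to 18). CD24high G9ai-only regions overlapped 4.22% of CD24low G9ai-only regions (3.78 to 4.72) and 4% of CD24low vehicle-only regions. Of the CD24low G9ai-only regions, 303 were thus also G9ai-only in CD24high, and 2 of the 980 members belonged to both classes. A further 5870 (81.8%) had no listed CD24high peak. Seen from the other population, the members covered 982 CD24high vehicle-only regions, which were 7.62% of 12880. Of all CD24low G9ai-only overlaps with a one-directional CD24high region, 76.4% (74.0 to 78.6) were with a vehicle-only region. The matching share was 80.5% (76.8 to 83.7) for CD24low vehicle-only regions and 82.8% over all one-directional CD24high regions. Opposite listing was thus not above the level of the CD24high lists as a whole.

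**Figure D1:**
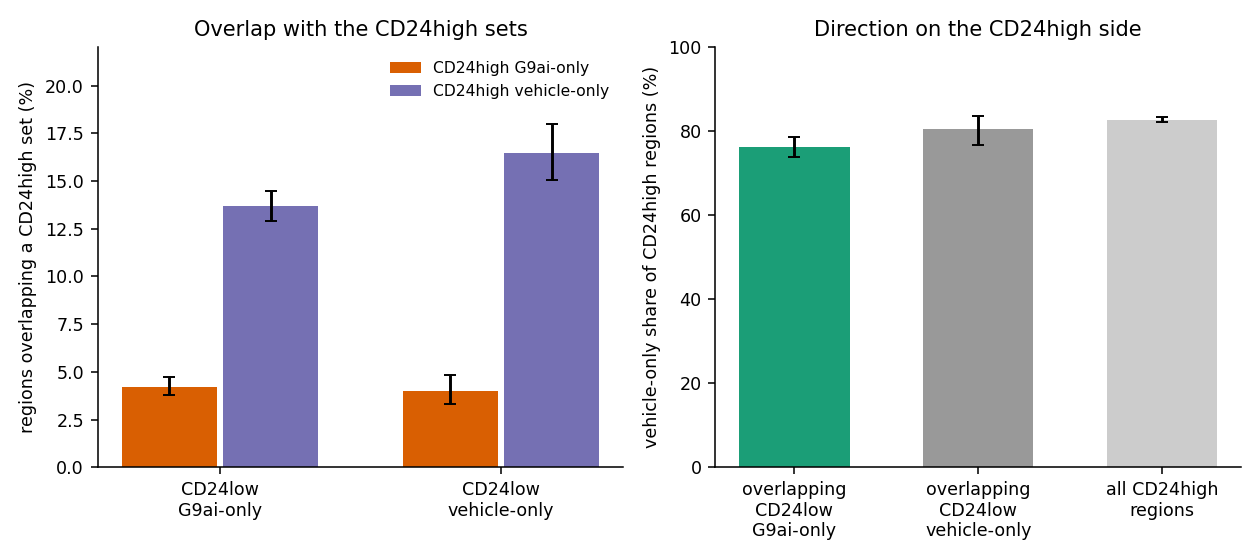
Left, the percentage of CD24low G9ai-only and CD24low vehicle-only regions that overlapped CD24high G9ai-only or vehicle-only regions; right, the vehicle-only percentage among one-directional CD24high regions in each set. Error bars are 95% Wilson intervals over regions. The members are the 13.7% bar, and the vehicle-only share of 76.4% on the right lies below the 82.8% of all CD24high regions.

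The intervals cover counting error only, since regions of a list are not replicates, and the single CD24high vehicle list leaves that side of every member without a replicate check. A region outside a list may still be open in both arms. The number of peaks differed between the lists, with 7379 and 7361 in CD24low G9ai 2 and 3, 2798 and 2817 in CD24high G9ai 2 and 3, 2558 and 2552 in CD24low vehicle 2 and 3, and 12985 in CD24high vehicle 3. With every list held to the 2552 peaks of highest score, 49 members were found, or 3.94% of the CD24low G9ai-only regions. A shared prefix in the peak names joined the libraries numbered 2 of the G9ai arm in all populations, another those numbered 3, and another the vehicle libraries numbered 3. No source used here explains these prefixes, and their part in the overlaps was not tested.

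Most members were narrow and the paired regions lay nearly on top of each other. The CD24low region was 67 bp at its narrowest, 198 bp at the median and 848 bp at its widest, and its CD24high partner 54, 167 and 938 bp. Where a member met several CD24high regions, which was so for 4, the one with the highest score was taken. The shared stretch was 4 bp at its shortest, 145 bp at the median and 482 bp at its longest. At the median it took up 81.2% of the CD24low region and 96.4% of the CD24high region, and the centres were 21.5 bp apart. Sharing reached 50% of both regions for 802 members, whereas 2 shared under 10 bp. Just inside the 1 bp limit lay a member near Ankef1 with 4 shared bases (chr2:136485775-136485896), a member in Aldh5a1, a mitochondrial aldehyde dehydrogenase gene, with 6 (chr13:24915199-24915378), and a member near Tpt1 with 23 (chr14:75866888-75867222). Just outside it lay regions in Hopx, a marker gene of alveolar type 1 cells, 16 bp away (chr5:77110115-77110330), in Ogfr 26 bp away, and beside Vim 33 bp away. Vim, which encodes the intermediate filament vimentin, also had a member on the other side of the same CD24high region (chr2:13573570-13573684).

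The members stood near the middle of the CD24low lists by score. The score is the authors' peak score, which ranks peaks within a list, and is given here as a percentile of that list. The median member stood at percentile 48.7 in CD24low G9ai 2 and 47.6 in CD24low G9ai 3, against 50.6 and 50.7 for the other CD24low G9ai-only regions. The difference was -2.51 ± 0.825 percentile points (SD, n = 2 libraries; two-sided exact sign-flip test, p = 0.5, the smallest that 2 libraries allow). Their peaks had a median width of 171 bp in CD24low G9ai 2 and 135 bp in CD24low G9ai 3, against 188 and 142 bp for the others, a mean difference of -12.0 ± 7.07 bp (exact sign-flip p = 0.5). With the higher-scoring 50% of each list the width difference was 6 bp in the opposite direction. In CD24high vehicle 3 the member peaks stood at a median percentile of 58.1 and were 167 bp wide, against 49.2 and 147 bp for the other 11898 vehicle-only regions. That single list has no replicate check.

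Scores of the same member in different lists were only weakly related. Across the 980 members, Spearman's rho was 0.237 between the CD24low G9ai 2 and G9ai 3 scores. It was 0.0648 between CD24low G9ai 2 and CD24high vehicle 3, and 0.0572 between CD24low G9ai 3 and CD24high vehicle 3. These are descriptions over regions of the same libraries. Above the 75th percentile of all 3 lists stood 33 members, and 21 stood below the 25th of all 3. Another 15 stood above the 75th in both CD24low lists and below the 25th in CD24high, and 24 the other way round.

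**Figure D2:**
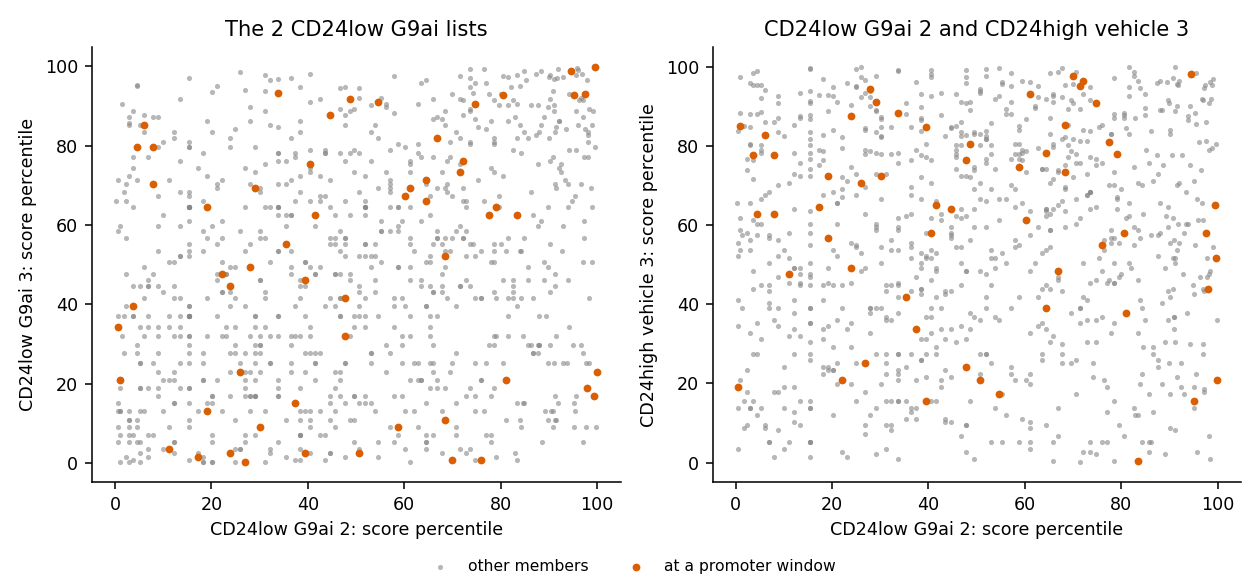
Score percentile of each of the 980 members within its list, CD24low G9ai 3 against CD24low G9ai 2 on the left and CD24high vehicle 3 against CD24low G9ai 2 on the right; members at a promoter window are coloured. The points spread over the whole range, with Spearman's rho of 0.237 on the left and 0.0648 on the right.

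The 25 members with the highest mean percentile lay mostly inside a gene span, and the rest are named by the nearest gene. The mean percentile ran to 97.2 at the member of Fuz, which scored 182, 174 and 295 in CD24low G9ai 2, CD24low G9ai 3 and CD24high vehicle 3 (chr7:44895701-44895854). All scores of single members below are in this order of libraries. A member 1830 bp from Gnaq, which encodes the alpha subunit of a heterotrimeric G protein, scored 189, 149 and 301 (chr19:16130572-16130854). One in Myl12a, a myosin regulatory light chain gene, scored 166, 140 and 239 (chr17:70993623-70993827). All 3 of these stood above the 90th percentile in every list.

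Among other genes of the cytoskeleton, Cobll1, related to an actin nucleator, held a member scoring 235, 107 and 244, and Mtus1, which encodes a microtubule-associated protein, one scoring 257, 99 and 259. Ablim1, an actin-binding LIM protein gene, held one scoring 213, 119 and 158, so that its CD24high score stood lower in its list than either CD24low score. Among signalling genes, Rptor, the scaffold of the mTORC1 kinase complex, held a member scoring 195, 190 and 157. Ppp1r16a, a regulatory subunit gene of protein phosphatase 1, held one scoring 164, 96 and 628, the highest CD24high score of any member. Nuak2, an AMPK-related kinase gene, held one scoring 144, 170 and 181, and Dtx2, a Deltex ubiquitin ligase of the Notch pathway, one scoring 201, 114 and 140. A member 5490 bp from Frmd8 scored 168, 101 and 250.

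Others of these members lay in, or had as their nearest gene, a gene of transcription or RNA. Gtf2ird1, a TFII-I family transcription factor gene, held a member scoring 136, 142 and 577. A member 73161 bp from Grhl2, a Grainyhead-like factor of epithelia, scored 159, 142 and 198, and one 118407 bp from Cebpb, a C/EBP transcription factor, scored 144, 96 and 215. Jarid2, a subunit of the Polycomb repressive complex PRC2, held one scoring 140, 94 and 251, and Kdm7a, a histone demethylase, was the nearest gene to one scoring 180, 118 and 143 at 62294 bp. Tnrc6a, which encodes a partner of Argonaute in microRNA silencing, held one scoring 153, 99 and 187. Members 11770 bp from Dhx15, a splicing helicase gene, and 17494 bp from Larp4b, an RNA-binding protein gene, scored 224, 93 and 197, and 150, 154 and 240. Others of the 25 lay in Zswim6, Slc41a2, a magnesium transporter gene, C77080 and Apbb2, and 8232 bp from Ebpl.

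**Figure D3:**
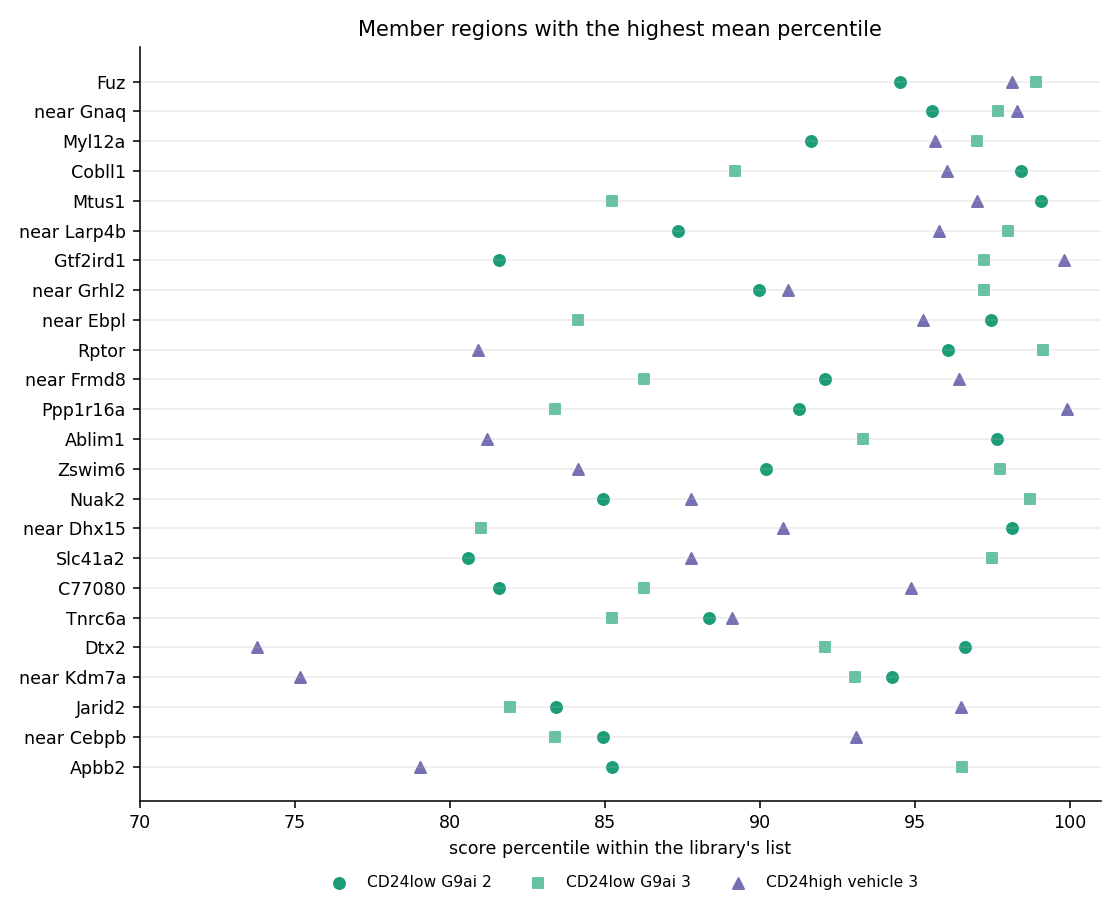
Score percentile of the 25 members with the highest mean percentile in CD24low G9ai 2, CD24low G9ai 3 and CD24high vehicle 3 (points), by the gene that holds the member or lies nearest; 1 of the 25 is not shown. Fuz heads the order with a mean of 97.2 and Apbb2 closes it with 86.9.

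The widest members were not the highest scoring. The widest, 848 bp at 35579 bp from Laptm4a, a lysosomal membrane protein gene, scored 173, 73 and 112 and met 2 CD24high regions, with 13.4% of its width in the one with the higher score. Lrmda held one of 842 bp that scored 191, 229 and 47, high in both CD24low lists and at percentile 2.73 of the CD24high list. Fhad1 held one of 816 bp with the reverse spread in CD24low G9ai 2 and CD24high, scoring 69, 168 and 569. Aagab held one of 769 bp that scored 92, 68 and 74, and the member 88027 bp from Fam3c was 761 bp wide and scored 357, 46 and 84.

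Members and the other CD24low G9ai-only regions had close shares near gene ends and in gene spans. The share over 100 kb from a gene end was lower for members, and was not tested across libraries. This was not particular to members. The share was 7.26% (4.84 to 10.7) for CD24low G9ai-only regions also G9ai-only in CD24high. It was 8.31% for all CD24high vehicle-only and 7.44% for CD24low vehicle-only regions. CD24low G9ai-only regions with no listed CD24high peak had 12.0%. Within 1000 bp of an end of a protein-coding gene lay 17.7% of member peaks in CD24low G9ai 2 and 17.4% in CD24low G9ai 3, against 16.8% and 16.6% of the others. The difference was 0.873 percentage points (exact sign-flip p = 0.5, n = 2 libraries). A gene span with 1000 bp on either side held 64.1% of the 980 members and 63.7% of the others. A promoter window of the table was overlapped by 57 of the 950 members on chromosomes it covers (6.00%, interval 4.66 to 7.69) and by 6.71% of the others (6.10 to 7.37). The nearest gene end was at a median of 12593 bp for members and 14089 bp for the others, and it was over 100 kb away for 8.79% of members (7.18 to 10.7) and 11.8% of the others (11.0 to 12.6). With the higher-scoring 50% of each list, the gene-end difference was -0.220 and the gene-span difference -1.59 percentage points, against 0.873 and 0.488 with all peaks.

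**Figure D4:**
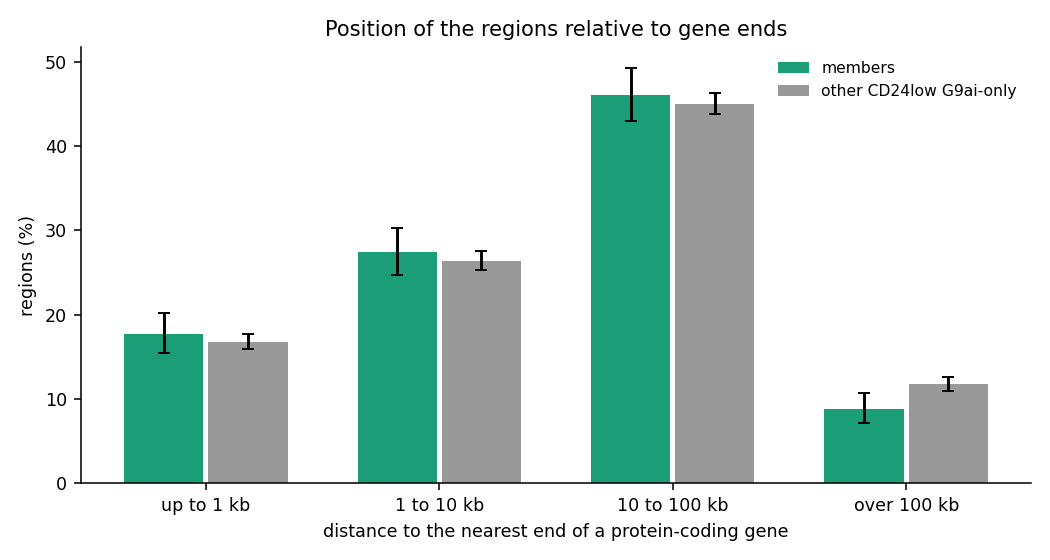
Percentage of members and of other CD24low G9ai-only regions by distance to the nearest end of a protein-coding gene, with 95% Wilson intervals over regions. The classes are close to each other up to 100 kb, and beyond it lie 8.79% of members and 11.8% of the others.

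The 57 promoter members overlapped 68 windows of 61 genes, and 41 of them held a listed start site. Short motif letters were counted on both strands of these windows, and none of the motifs is contained in another. CCGGAAG, the core bound by ETS factors, was in 17 windows (25%, interval 16.2 to 36.4), against 16.2% of the 445 windows with another CD24low G9ai-only region and 11.6% of all windows. The Fuz, Samd15 and Hnrnpf windows above hold these letters, and those of Ltbp1, Cyp2f2 and Ifitm3 do not. In Fuz, Samd15 and Hnrnpf the letters lie in lower case, outside the bases shared by the regions of both populations. All motif counts are over whole windows, and some windows held no base shared by both regions. GGGGCGGGG, for SP and KLF factors, was in 25%, 22.2% and 15.4%, and CCAAT, for NF-Y, in 25%, 26.7% and 38.2%. TGTTTAC, for forkhead factors, was in 5 windows with a member (7.35%), against 2.70% and 3.01%, and GGAATG, for TEAD factors, in 10.3%, 11.2% and 13.6%. The NRF1 letters, GCGCA and GCGC with 1 base of any kind between them, were in 1 window with a member (1.47%, interval 0.260 to 7.87). They were in 10.6% of the windows with another CD24low G9ai-only region and in 6.38% of all windows, which lies inside the member interval. Windows of neighbouring genes can hold the same bases, and a match of letters is not a bound site.

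Taken over all regions, the CD24neg lists, which the rule did not use, covered members more often than the other CD24low G9ai-only regions in both directions. CD24neg vehicle-only regions overlapped 127 members (13.0%, interval 11.0 to 15.2), against 494 of the others (7.98%, 7.33 to 8.68). CD24neg G9ai-only regions overlapped 73 members (7.45%, 5.97 to 9.26), against 341 of the others (5.51%, 4.97 to 6.10). By single list, CD24neg G9ai 2 covered 7.55% of members and 5.60% of the others, CD24neg G9ai 3 covered 7.65% and 5.64%, and CD24neg vehicle 3 covered 13.2% and 8.09%. Members were higher in 3 of 3 lists (exact sign-flip p = 0.25, the smallest that 3 lists allow). The 3 lists mix both arms, and the G9ai lists 2 and 3 hold nearly the same regions. That p-value therefore does not measure a spread within a condition. Of CD24neg merged regions, 67.8% were vehicle-only and 31% were G9ai-only. Among members with a one-directional CD24neg region, 63.5% (56.6 to 69.9) met a vehicle-only one, against 59.2% among the others and 68.6% of all one-directional CD24neg regions. The vehicle lists of CD24neg and CD24high share a name prefix, whose part in these overlaps was not tested.

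The CD24low G9ai-only regions that were also G9ai-only in CD24high lay between, with 10.6% (7.58 to 14.5) under CD24neg vehicle-only and 6.93% (4.58 to 10.4) under CD24neg G9ai-only regions. Regions with no listed CD24high peak had 7.84% and 5.43%. With the higher-scoring 50% of each list, the vehicle-only overlap was 4.32% for members and 4.94% for the others, and the G9ai-only overlap 1.62% and 1.60%; this setting also trimmed the CD24neg lists. With all CD24neg peaks kept and the CD24low G9ai-only regions split into 4 groups by mean score percentile, CD24neg vehicle-only regions overlapped 13.5% of members (9.48 to 18.8) and 7.19% of the others (6.02 to 8.57) in the highest group. In the group below it they overlapped 8.98% of members and 6.44% of the others. CD24neg G9ai-only regions overlapped 4.33% of members (2.29 to 8.02) and 4.29% of the others in the highest group. In the group below it the shares were 7.03% and 5.60%. With 4 groups by region width, CD24neg G9ai-only regions overlapped 4.05% of members and 6.35% of the others in the widest group. Members were higher in the narrower groups. Members under a CD24neg vehicle-only region included those of Cobll1 and Slc41a2, the one near Grhl2, and members in Acsl1, a fatty acid activating enzyme gene, scoring 116, 117 and 239, and in Lamp2, a lysosomal membrane gene, scoring 121, 106 and 165. Members under a CD24neg G9ai-only region included that of Gtf2ird1 and one in Sox12, a SOX transcription factor gene, scoring 76, 119 and 184. Acsl1, Lamp2 and Sox12 were chosen after their values were seen.

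**Figure D5:**
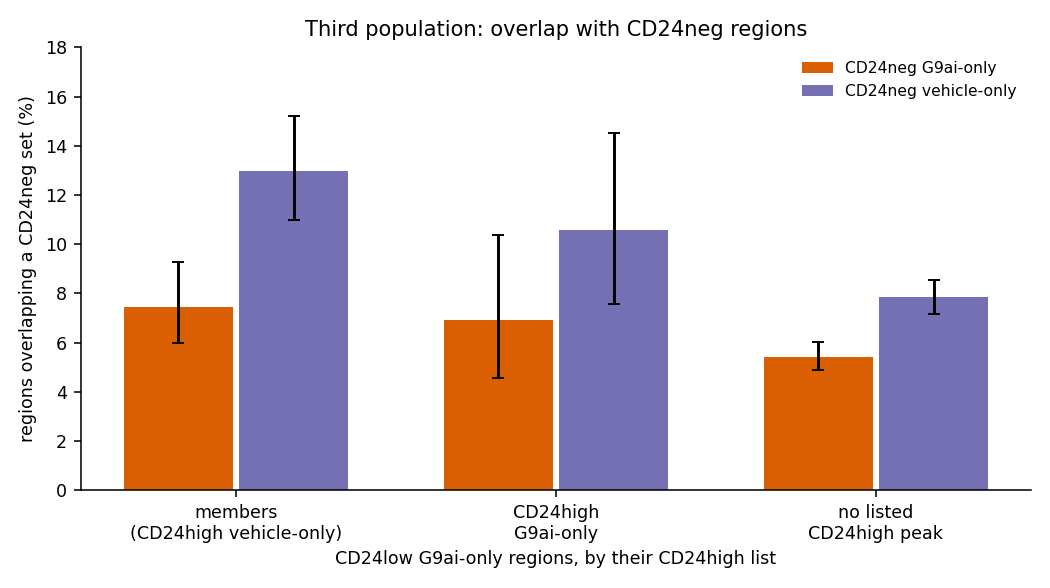
Percentage of CD24low G9ai-only regions overlapped by CD24neg G9ai-only or vehicle-only regions, by their CD24high list, with 95% Wilson intervals over regions. Members stand at 7.45% and 13.0%, and regions with no listed CD24high peak at 5.43% and 7.84%.

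A member lay in or within 1000 bp of 630 protein-coding genes (2.88% of 21887). Another CD24low G9ai-only region lay at 3113 genes (14.2%), and a CD24high vehicle-only region at 5461 (25%). Of the 630 genes, 596 had 1 member and 34 had more. A CD24low vehicle-only region also lay at 127 of them, and a CD24high G9ai-only region at 143. Genes with several members were long, with a median of 155114 bp against 57686.5 bp for genes with 1 member and 17169 bp for all protein-coding genes. Pdlim5, which encodes a PDZ and LIM domain protein of the cytoskeleton, had 3 members, and all its CD24low G9ai-only regions were members. They scored 114, 79 and 188 (chr3:142339892-142340215), 104, 57 and 54 (chr3:142332811-142333217), and 45, 59 and 61 (chr3:142274460-142274713).

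Among transcription and cell cycle genes, Runx1, a transcription factor of blood and epithelia, had 2 members scoring 162, 121 and 93 (chr16:92612560-92613212) and 158, 66 and 92 (chr16:92656800-92657200). Runx1 was listed in both directions in both populations. It had 2 other CD24low G9ai-only regions and 1 CD24low vehicle-only region, and in CD24high 8 vehicle-only and 2 G9ai-only regions. Rb1, the retinoblastoma gene that restrains the cell cycle, had 2 scoring 203, 81 and 124 (chr14:73238524-73238654) and 63, 120 and 129 (chr14:73262274-73262515). The first of these Rb1 members also lay in Lpar6, so it cannot be assigned to Rb1 alone. No other CD24low G9ai-only region lay at Rb1, nor at Cnot4, a subunit gene of the CCR4-NOT complex, Lrig1, an inhibitor of ERBB receptors, Mob1b, Tnrc6a, Trappc9 or Zswim6. Each of these 7 genes had 2 members, as did Arhgef10l, Camk2d, Ext1, Fto, Lipc, Lmo7, Lrrfip1, Mob3b, Mtus1, Naaladl2, Notch2, Opa1, Osbpl3, Pde4d, Ppp1r37, Rad51b, Retreg1, Sipa1l3, Sorcs2, Stard13, Synj2, Synpo, Tbc1d8, Tpcn2 and Vps37c. They include Opa1, a gene of mitochondrial fusion, Ext1, a heparan sulfate synthesis gene, and Pde4d, a cAMP phosphodiesterase gene.

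Of 633 genes in 23 lists of cell types and pathways, 44 (6.95%) had a member, against 2.88% of all protein-coding genes. The lists differ in gene length, and no test was made. Among club cell genes 3 of 24 had one, and 10 of 24 had another CD24low G9ai-only region. The member of Scgb1a1, which encodes the club cell secretory protein, reached over an end of the gene and scored 226, 88 and 152, at percentiles 98.2, 77.2 and 79.0 (chr19:9087796-9088263). That of Cyp2f2 covered the start shown above and scored 89, 57 and 145 (chr7:27119829-27120042). Por, the electron donor of cytochrome P450 enzymes, held one scoring 71, 50 and 80. The club cell genes were thus high in all 3 lists at Scgb1a1 and below the middle of both CD24low lists at Cyp2f2 and Por.

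Among multiciliated cell genes 3 of 34 had a member, which were Ccdc40 and Dynlrb2, of the ciliary axoneme and dynein, and Cfap61. Their scores were 85, 40 and 92 for Ccdc40, 99, 55 and 146 for Dynlrb2, and 87, 60 and 106 for Cfap61. Alveolar genes had 2 of 22 for type 1 cells and 1 of 23 for type 2 cells. The type 1 genes were Limch1, with a member scoring 170, 84 and 72, and Lmo7, with members scoring 110, 54 and 154, and 59, 51 and 94. The type 2 gene was Abca3, the lipid transporter of lamellar bodies, at 146, 64 and 49. No member lay at any of 15 mucous cell genes, 18 basal cell genes, 30 pan-epithelial and lung lineage genes or 14 neuroendocrine genes. Of the cell types that the gate was built to leave out, 2 of 20 endothelial genes had a member and 0 of 25 leukocyte genes did. Over all protein-coding genes the share was 2.88%, so 0 in any of these short lists cannot be told from that share. The endothelial genes were Pecam1, which encodes CD31 and scored 164, 63 and 102, and Tek, an angiopoietin receptor gene, at 163, 106 and 109. Mesenchymal genes had 2 of 22, Vim at 70, 45 and 131 and Tagln at 70, 76 and 100, with the Tagln member lying closer to Sidt2. Among the 5 genes of the sort itself only Pecam1 had a member.

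The Hippo pathway, which controls growth through YAP and TAZ and the TEAD factors, had members at 7 of 28 genes (25%), against 2.88% of all protein-coding genes. Its genes were long, with a median of 73155.5 bp against 17169 bp for all protein-coding genes, and no test was made. At its kinase end, Stk3, a Hippo kinase gene, held one scoring 142, 69 and 87, and Mob1b, a kinase activator gene, held 2, scoring 79, 60 and 67, and 80, 45 and 101. At its nuclear end, Wwtr1, which encodes TAZ, held one scoring 82, 48 and 145, and Tead4 one scoring 90, 57 and 136. Amot, a junctional binder of YAP, held one scoring 72, 91 and 87. Fat3, an atypical cadherin gene, held one scoring 47, 99 and 156, and one beside Ajuba, a LIM protein gene, scored 50, 54 and 78. Another CD24low G9ai-only region lay at 15 of the 28 genes (53.6%), against 14.2% of all protein-coding genes. A CD24high vehicle-only region lay at 17 (60.7%), against 25% of all.

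In other signalling lists, TGF-beta and BMP genes had 4 of 37, which were the receptor Acvr1 (80, 45 and 93), the transducer Smad1 (78, 94 and 168), the corepressor Ski (43, 73 and 184) and Ltbp1 (96, 111 and 62). Wnt genes had 3 of 50, the ligand Wnt5b (189, 106 and 69), the R-spondin receptor Lgr4 (121, 92 and 129) and the effector Tcf7l1 (168, 85 and 133). Notch genes had 2 of 28, the receptor Notch2 with members at 208, 74 and 64 and at 86, 50 and 168, and the coactivator Maml3 (49, 56 and 74). Nuclear receptor genes had 3 of 34, among them the vitamin D receptor Vdr (112, 70 and 209) and the retinoic acid receptor Rarb (105, 48 and 101). The interferon list had 2 of 22, Ifit3 (141, 126 and 89) and the immunoproteasome subunit Psmb8 (140, 49 and 133).

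None of 25 genes of histone H3 lysine 9 and DNA methylation, the pathway of G9a itself, had a member. Over all protein-coding genes the share was 2.88%, and 0 in a list this short cannot be told from that share. Another CD24low G9ai-only region lay at 3 of the 25 genes and a CD24high vehicle-only region at 6. Other histone modifiers and remodellers had 6 of 51, with a median gene length of 77762 bp. They were the SWI/SNF subunits Arid1a (69, 43 and 269) and Arid2 (74, 61 and 48), the deacetylase Hdac3 (80, 47 and 148), the remodeller Ino80 (91, 59 and 142), the demethylase Kdm5a (60, 41 and 122) and the methyltransferase Setd1b (87, 51 and 77). Splicing genes had 2 of 37, Hnrnpf and U2af2. The Hnrnpf member scored 308, 264 and 102, above the 99th percentile in both CD24low lists and at 51.6 in the CD24high list. Its shared stretch took up only 23.0% of the CD24low region and 47.4% of the CD24high region, with centres 221 bp apart. U2af2 was at 87, 46 and 214, and its member lay in Ccdc106. Proteasome genes had 1 of 31, Psmc5 (206, 55 and 203), whose member lay in Ftsj3, and mitochondrial ribosome and respiratory chain genes 1 of 48, Atp5d (104, 80 and 214), whose member lay in Cbarp. A region was counted for every gene within 1000 bp, so these last 3, and the Kdm5a member at the Ccdc77 promoter, cannot be assigned to 1 gene.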

How the data were processed

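ATAC-seq was made from sorted lung epithelial cells. The submitters' processing notes name FastQC, Bowtie2, MACS2 and build mm10. No source used here gives versions, read shifting, duplicate handling or thresholds. Each list holds the peaks of 1 library with the authors' score as deposited, on a scale that no source states. The names in the files mark peaks as NFR. The lists are subsets that set the arms apart, and depth is unknown.

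Repeated lines (47 to 472 per list) were dropped and peaks merged by at least 1 bp within a population. Scores were used only as percentiles within a list. Genes and promoter windows came from RefSeq (GRCm38.p6, the assembly of mm10). The promoter table covers 17492 genes; sequences elsewhere were not analysed here. Shares have 95% Wilson intervals. Members were compared with the other CD24low G9ai-only regions by exact sign-flip permutation over libraries, two-sided (Python 3.11.15, pandas 2.3.3, scipy 1.17.1). The same regions were measured in each library, so these p-values do not measure how well the regions replicate. The scripts were tested on simulated data. Nothing beyond the design text says that replicate libraries came from separate mice.

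Named are genes linked to the 25 members of highest mean percentile, list genes with a member, genes with 2 or more members and those nearest to the 5 widest, leaving out Gm, Rik and Olfr symbols; some genes that this rule selects are not reported here. Members and lists were chosen with earlier results of these data known. Alternatives were a 50% overlap, merging within 100 bp, the higher-scoring 50% of each list, equal list lengths, repeated lines kept, other gene distances and leaving out each library.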

Additional observations from a re-analysis of the deposited data

Results flagged for a closer look

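The 980 members differ in direction between populations by the way they were chosen: each was listed in the G9ai arm alone in CD24low and in the vehicle arm alone in CD24high. The difference was not tested, since the rule fixed it, and CD24high vehicle-only regions were 82.1% of all CD24high regions.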

How the results depend on the processing

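Of 83 alternative values over 8 results, 73 were counted as unchanged. A difference between members and others was unchanged if it kept its sign, and 3 reversed. A share was unchanged if it stayed inside the Wilson interval of the value reported above, and 5 moved out of it. Numbers of members counted as unchanged at 802 and above, and 2 lower ones as weaker. Among the 73 unchanged values, the gene-span difference was 1.07 percentage points with a 50% overlap, against 0.488. The gene-end difference was 1.47 with the widest distance tried, against 0.873. The number of members was 802 with a 50% overlap of both regions and 979 with merging within 100 bp. It was 185 with the higher-scoring 50% of each list and 49 with equal list lengths. Leaving out 1 library gave 980 to 987. That setting could change little in any of the results, since few merged regions were listed in 1 replicate only. These were 279 of 9969 in CD24low, 27 of 15687 in CD24high and 73 of 12957 in CD24neg. The share of CD24low G9ai-only regions that were members was 11.2%, 8.23% and 3.94% under the 50% overlap, the higher-scoring 50% and equal lengths, against 13.7%. It was 13.4% to 13.7% without 1 library. With the higher-scoring 50% of each list, the member minus other difference was -0.220 percentage points near gene ends (0.812 to 1.03 without 1 library), -1.59 in gene spans (0.470 to 0.614) and 6 bp in width (-14 to -7). There, CD24neg vehicle-only regions overlapped 4.32% of members and CD24neg G9ai-only regions 1.62%, against 12.4% to 13.1% and 7.35% to 7.54% without 1 library. Fewer peaks in every list leave fewer overlaps by construction; the cause of the reversals was not tested. The median percentile difference was -4.70 to -2.51 without 1 library; -4.70 and the width difference of -7 bp were those without CD24low G9ai 2. Leaving out CD24neg libraries was chosen after seeing the data. No paired analysis was possible because members come from overlaps of lists and no test runs across the arms. Depth is unknown, so no limit of detection can be given, and 1 CD24high vehicle and 1 CD24neg vehicle library leave their sides without a replicate.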

Other observations

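The members spread over the genome with modest differences between chromosomes. They were 18.4% of the CD24low G9ai-only regions on chromosome 15 (52 members; interval 14.3 to 23.4) and 10.6% on chromosome 3 (45 members; 7.99 to 13.8), against 13.7% overall. Only 4 of 959 neighbouring pairs of members lay within 1000 bp of each other, and 46 within 50000 bp. A microRNA hairpin lay within 1000 bp of 2 members. These were Mir3086 by the member at chr19:58910582-58911174 and Mir7654 by the member at chr8:8689958-8690076. When the CD24low G9ai-only regions were ordered by mean score percentile into 4 groups of equal size, members made up 14.6%, 14.2%, 14.3% and 11.6% from the lowest to the highest group. By width, their share was 16.4%, 14.7%, 11.3% and 12.4% from narrow to wide.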
